A study of Mus musculus with 4 samples.

Results

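The comparison set skin of 1 library of mice treated with MC903 for 9 days against skin of 1 library of mice harvested at day 16 of an oxazolone course. It used every called barcode in which 300 or more genes were detected and no more than 15% of UMIs were mitochondrial, which left 3843 cells with MC903 and 7909 cells at oxazolone day 16, together 11752 of the 27755 such cells of the series. MC903 is calcipotriol, a vitamin D analog that gives skin an inflammation like atopic dermatitis. Oxazolone is a hapten, a small chemical to which mice are first sensitized and then challenged. Both libraries came from ear and neck skin of female C57BL/6J mice of 6 to 8 weeks, with the tissue of 3 mice pooled in each library, digested with a collagenase mix chosen to release fibroblasts, freed of dead cells and sequenced by droplet-based single-cell RNA-seq. The MC903 mice received 1 nmol in ethanol, 100 µL a day for 9 days, on ear and neck. Sensitization used 100 µL of oxazolone at 3% in acetone and mineral oil and, from 7 days later, the mice received 1.0% oxazolone every other day until day 16. Untreated skin (7702 cells) and skin at oxazolone day 10 (8301 cells) are given beside the 2 libraries only as values.

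Drug, solvent, number of applications and day differed together between the 2 libraries, no library treated with solvent alone was analysed here, and these cannot be told apart. With 1 library of pooled mice on each side, no difference between mice can be estimated and no p-value is given. Levels are summed UMIs (unique transcript molecules) of a class of cells scaled to 1000000 UMIs of that class (CPM), a difference is the log2 ratio of MC903 over oxazolone day 16, and a gene is counted as higher or lower at 2-fold or more. The intervals in parentheses are exact 95% intervals that cover counting error only.

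The libraries held 73054242 UMIs (MC903) and 108142462 UMIs (oxazolone day 16), with medians of 14639 and 9064 UMIs per kept cell. Without the cells gated as neutrophils, which hold little RNA, the medians were 15465 and 14402.5. The 2 libraries shared 10 barcodes. Cells were assigned to 18 classes by at least 3 detected markers of a class, and 14.4% and 16.2% of cells met no gate. In each of the 7 classes compared gene by gene, no more markers of another class than of its own stood among its 10 leading genes, and for fibroblasts these held 0 and 1 of its own markers.

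In skin inflammation of this type, keratinocytes and stromal cells release alarmins such as IL-33 and TSLP, and basophils, type 2 innate lymphocytes and T helper cells answer with IL-4 and IL-13, which act through the IL-4 receptor on macrophages, fibroblasts and keratinocytes. Contact with a hapten adds T cells that recall it, and neutrophils and monocytes that follow chemokines. A vitamin D analog also acts directly on any cell with the vitamin D receptor (Vdr), where Cyp24a1, the enzyme that breaks active vitamin D down, is the classic induced gene.

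The cell makeup of the 2 libraries differed mainly in fibroblasts and myeloid cells. Fibroblast-gated cells made up 44.6% (43.0 to 46.2%) of the MC903 library and 7.71% (7.13 to 8.32%) of the oxazolone day 16 library, 5.78-fold higher (5.27 to 6.35). Neutrophil-gated cells made up 7.29% (6.48 to 8.15%) and 46.9% (45.8 to 48.0%), 6.43-fold lower (5.70 to 7.29) with MC903. Macrophage- and monocyte-gated cells made up 4.40% (3.77 to 5.09%) and 18.5% (17.6 to 19.4%), 4.20-fold lower (3.58 to 4.96) with MC903. Neutrophils were thus the largest class at oxazolone day 16 and fibroblasts the largest with MC903. In untreated skin these classes held 35.7%, 0.208% and 1.75%, and at oxazolone day 10 11.9%, 21.1% and 21.4%.

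Basophils, the granulocytes that make most IL-4 in these libraries, counted 59 cells with MC903, 1.54% (1.17 to 1.98%), and 50 cells at oxazolone day 16, 0.632% (0.470 to 0.833%). The share was 2.43-fold higher (1.64 to 3.61) with MC903, and 1.39-fold higher among cells not gated as neutrophils. Mast cells counted 32 and 18 cells, 3.66-fold higher (1.99 to 6.92) with MC903. Lymphocytes, the joint gate for T cells and innate lymphoid cells, made up 6.97% (6.19 to 7.83%) and 4.31% (3.87 to 4.78%). Their direction turned with the denominator: 1.62-fold of the oxazolone share over all cells and 0.927-fold without neutrophils. Schwann cells, which sheath nerves, stood at 5.98% and 0.480%, 12.5-fold higher (8.81 to 18.1). Mural cells, which wrap small vessels, stood at 4.55% and 0.430%, 10.6-fold higher (7.30 to 15.8). Fibroblasts, cartilage, mural, Schwann, pigment and keratinocyte classes were thus each a larger share with MC903, while endothelial cells of blood vessels stood at 1.17% and 1.21%. Since shares sum to the whole library, each also depends on how many leukocytes that library held. Keratinocytes were few in both libraries, 3.17% and 1.42%, against 24.7% in untreated skin.

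**Figure D1:**
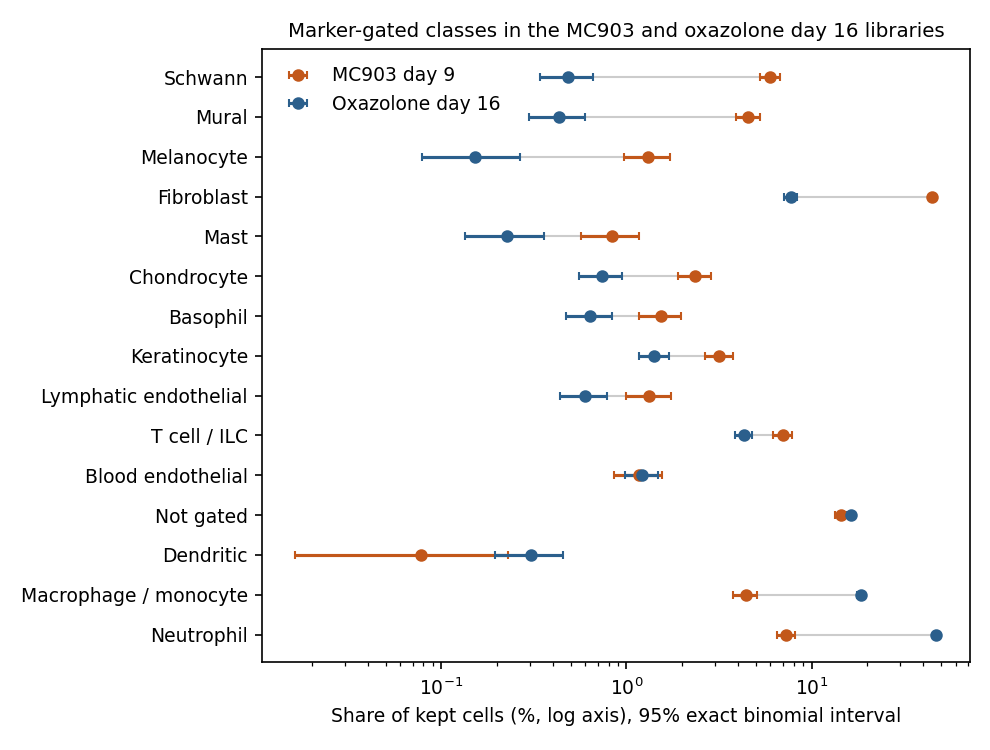
Share of kept cells in each marker-gated class in the MC903 day 9 library (orange) and the oxazolone day 16 library (blue), in percent on a log axis, with exact 95% binomial intervals and ordered by the ratio. Schwann and mural cells stand highest with MC903 relative to oxazolone, and neutrophils and macrophages lowest.

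Cyp24a1 (GRCm38 chr2:170482708-170497145, minus strand), the vitamin D target, was present with MC903 and nearly absent at oxazolone day 16. It held 4221 UMIs with MC903 and 1 UMI at oxazolone day 16 (58.3 and 0.00929 CPM), with 0 UMIs in untreated skin and 14 at oxazolone day 10. By class, its level with MC903 was 176 CPM (166 to 188) in keratinocytes, 63.2 CPM (44.0 to 87.9) in melanocytes, 58.7 CPM (56.3 to 61.1) in fibroblasts and 34.7 CPM (26.7 to 44.4) in the cartilage cells of the ear. Keratinocytes thus held it highest per UMI, and fibroblasts, being many, held 56.7% of all its UMIs. At oxazolone day 16 it was at 0 UMIs in keratinocytes, fibroblasts and cartilage cells, and the 12 melanocytes there were too few to compare. In fibroblasts the MC903 level was at least 356-fold higher than the floor of 3 UMIs in the gate.

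Cyp24a1 was not seen in every class of the MC903 library. Mural cells held 0 UMIs in 175 cells, which allows up to 1.18 CPM, and Schwann cells 1 UMI in 230 cells. Leukocyte gates held it in few cells: 6 of 280 neutrophils, 4 of 169 macrophages and 4 of 268 lymphocytes. Among fibroblasts 162 of 1714 cells (9.45%) held a UMI, and among keratinocytes 73 of 122 (59.8%), at medians of 20681 and 42567 UMIs per cell. At an equal depth of 2000 UMIs per cell these shares were 3.90% and 23.3%, and the share in mural cells was 0%.

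Of 14 measured genes of the vitamin D response list in fibroblasts (15% of all genes higher, 12% lower), 4 were at least 2-fold higher and 1 lower, with a median log2 ratio of -0.04. The 4 were Cyp24a1, S100g, Igfbp3 and Cdkn1a, a cell cycle inhibitor at 180.1 against 69.4 CPM, and the lower one was Cd14, an endotoxin co-receptor, at 46.6 against 109 CPM. With 5% free RNA taken off the Cd14 ratio reversed and 0 members of the list were lower. S100g, the calcium-binding protein calbindin-D9k that vitamin D induces in the gut, held 305 UMIs with MC903 and 7 at oxazolone day 16 over whole libraries, log2 ratio 6.02 (4.96 to 7.34), and fibroblasts held 85.2% of the MC903 UMIs. Most came from few cells: 5 fibroblasts held 73.1% of the class's S100g UMIs, in 40 cells with any. Igfbp3, a secreted binding protein of insulin-like growth factors, stood at 1855 CPM with MC903 and 187 CPM at oxazolone day 16 in fibroblasts, log2 ratio 3.31 (3.26 to 3.36), with 268 CPM in untreated skin. With MC903 59.6% of fibroblasts held it against 31.3%, at medians of 20681 and 26786 UMIs per cell, and 41.3% and 12.4% at an equal depth. In lymphocytes, which should lack Igfbp3, 17.2% and 0.293% of cells held a UMI, at medians of 10390 and 11813 UMIs, and 3.77% and 0.294% at an equal depth. Of the lymphocytes' 137 Igfbp3 UMIs with MC903 1 cell held 56.9%. These medians apply to the fibroblast and lymphocyte shares of cells given below.

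The bases before the start of S100g are shown because this gene is a textbook target of the vitamin D receptor and differed 64.7-fold over whole libraries. Capitals mark the letters AGGTCA, searched on both strands, the core site that the vitamin D receptor and other nuclear receptors share (RefSeq, GRCm38.p6, chrX:162964600-162964849, minus strand, 5′ to 3′):

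S100g promoter: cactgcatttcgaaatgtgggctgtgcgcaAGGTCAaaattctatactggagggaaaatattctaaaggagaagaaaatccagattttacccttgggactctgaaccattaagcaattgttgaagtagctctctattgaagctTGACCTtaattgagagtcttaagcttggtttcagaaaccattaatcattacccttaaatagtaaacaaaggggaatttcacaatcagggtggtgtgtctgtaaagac

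It held 2 matches, 220 and 107 bases before the start, the second read on the other strand as TGACCT. Of 32851 promoter windows of this length, 4607 (14.0%) held at least 1, so a match is common and is given as a description only.

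The receptor itself differed in opposite directions by class. Vdr stood at 83.0 CPM with MC903 and 317 CPM at oxazolone day 16 in keratinocytes, log2 ratio -1.93 (-2.09 to -1.78), and at 29.8 against 46.3 CPM in fibroblasts, log2 ratio -0.64 (-0.77 to -0.51). In macrophages it stood at 77.2 against 14.0 CPM, log2 ratio 2.46 (2.25 to 2.67), and in neutrophils at 10.1 against 2.28 CPM, log2 ratio 2.15 (1.47 to 2.79). Vdr was thus lower with MC903 in keratinocytes, which held it highest of these 4 classes, and higher in the myeloid gates, where 63 of 169 macrophages and 12 of 280 neutrophils held a UMI.

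**Figure D2:**
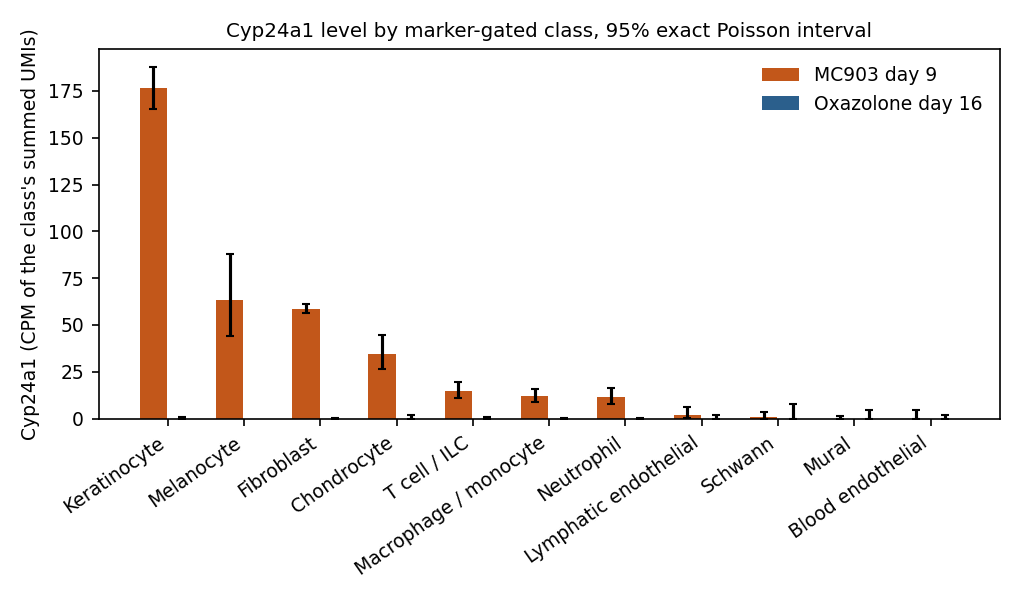
Cyp24a1 level in each marker-gated class, in CPM of the class's summed UMIs, with exact 95% Poisson intervals, in the MC903 day 9 library (orange) and the oxazolone day 16 library (blue). Keratinocytes, melanocytes and fibroblasts stand highest with MC903, and every class drawn is at 0 at oxazolone day 16, where the 12 melanocytes are not drawn.

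Over whole libraries, 6290 of 19676 genes (32%) were at least 2-fold higher and 2368 (12%) at least 2-fold lower with MC903, and the median log2 ratio was 0.54. The many neutrophil UMIs of the oxazolone library count in this total. With edgeR's TMM scaling, which lowers whole-library log2 ratios by 0.53, the counts were 3158 and 3943. TMM moved the log2 ratios by -0.26 in basophils, -0.16 in fibroblasts, -0.26 in macrophages, -0.49 in neutrophils, -0.39 in lymphocytes, 0.10 in keratinocytes and -0.18 in cartilage cells, and ratios below are given before it. A whole-library level also mixes how many cells of a type there were with the RNA per cell, which cannot be told apart.

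The type 2 cytokines differed among themselves. Of 5 measured genes of that list 1 was at least 2-fold higher over whole libraries, Il13, and 3 were lower, with a median log2 ratio of -1.07. Il4 stood at 53.0 CPM with MC903 and 36.8 CPM at oxazolone day 16 over whole libraries, log2 ratio 0.53 (0.46 to 0.59), against 0.830 CPM in untreated skin and 2.73 CPM at oxazolone day 10. Il13 stood at 8.38 against 2.41 CPM, log2 ratio 1.80 (1.59 to 2.02), against 1.23 CPM in untreated skin. The lower members were Il10, an inhibitory cytokine, with 519 against 1616 UMIs, Csf2 at 2.68 against 6.14 CPM and Il3, a growth factor of basophils and mast cells, with 6 against 29 UMIs. Basophils held 81.9% of 3842 Il4 UMIs with MC903 and 93.3% of 3963 at oxazolone day 16, and lymphocytes 5.28% with MC903. Among the alarmins, Tslp stood at 3.48 against 0.818 CPM, log2 ratio 2.09 (1.73 to 2.46), with 60.7% of its MC903 UMIs in fibroblasts and 15.1% in mural cells. Il33 stood at 21.4 against 46.7 CPM, log2 ratio -1.12 (-1.21 to -1.04), and fibroblasts held 96.2% and 95.5% of it. The 2 alarmins thus differed in opposite directions. With every cell weighted equally the Il33 ratio was -0.15.

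The eotaxins, which draw eosinophils, split by source. Ccl11, made by fibroblasts, stood at 104 against 36.7 CPM, log2 ratio 1.50 (1.45 to 1.56) or 0.98 with TMM, and Ccl24, made by macrophages, at 147 against 1988 CPM, log2 ratio -3.76 (-3.79 to -3.73). Ccl17, which draws T helper cells, stood at 9.18 against 1.36 CPM, log2 ratio 2.76 (2.50 to 3.03), with 77.6% of its MC903 UMIs in cells that met no gate, and its partner Ccl22 at 5.07 against 7.75 CPM, log2 ratio -0.61 (-0.79 to -0.43) or -1.14 with TMM. Genes of neutrophils and macrophages were lower with MC903 beside the smaller shares of these cells: S100a8, an antimicrobial protein of neutrophils, had a log2 ratio of -3.08, Il1b of -2.16 and Osm of -2.08. The platelet chemokine Ppbp had a log2 ratio of -4.96, and no platelet class was among the 18.

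In basophils, 678 of 3700 measured genes (18.3%) were at least 2-fold higher and 166 (4.49%) at least 2-fold lower with MC903 (432 and 300 with TMM), with a median log2 ratio of 0.28. Il4 was the leading cytokine in both libraries, at 5326 CPM with MC903 and 9084 CPM at oxazolone day 16, log2 ratio -0.77 (-0.84 to -0.70) or -1.03 with TMM. It was held by 50 of 59 and 43 of 50 cells, at medians of 8870.0 and 8372 UMIs per cell, and at an equal depth of 2000 UMIs by 64.3% (50.4 to 76.6%) and 72.9% (58.2 to 84.7%), intervals that overlap. In macrophages, which do not make it, 1.78% and 1.78% of cells held an Il4 UMI. The median basophil held 599.8 CPM of Il4 with MC903 and 2267 CPM at oxazolone day 16, and 5 cells held 54.1% and 57.3% of the UMIs. The summed Il13 level was 846 against 494 CPM, log2 ratio 0.78 (0.54 to 1.02), with 5 cells holding 69.4% and 77.6% of the UMIs. By cells Il13 was not higher with MC903: 28 of 59 and 26 of 50 held it, 28.6% and 33.3% at an equal depth, and the median cell held 0 and 76.4 CPM.

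Several other effectors of basophils were lower with MC903. Of 17 measured effector genes of basophils and mast cells, 1 was at least 2-fold higher and 3 lower (0 and 5 with TMM), with a median log2 ratio of -0.10. Csf2, which encodes the growth factor GM-CSF, stood at 271 against 1283 CPM, log2 ratio -2.24 (-2.51 to -1.99), in 7 of 59 and 15 of 50 cells. Areg, a ligand of the EGF receptor, stood at 159 against 1747 CPM, log2 ratio -3.46 (-3.78 to -3.15), in 5 and 18 cells. Fibroblasts held Csf2 in 0.175% and 0.164% and Areg in 0.408% and 1.64% of cells. Both basophil values rest on few cells, and 1 cell held 75.6% of the Csf2 UMIs with MC903. Mcpt8, the basophil protease that also marks the gate, stood at 3375 against 7116 CPM, log2 ratio -1.08 (-1.16 to -0.99). Il1rl1, the receptor of IL-33, was the member that was higher, at 1419.9 against 639 CPM, log2 ratio 1.15 (0.95 to 1.36), and was under 2-fold with TMM, at 0.89. Il6 and Osm, 2 cytokines of the IL-6 family that basophils held at high levels, differed less, with log2 ratios of -0.34 and 0.22.

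The MC903 basophils held more of several immediate early genes, which respond within minutes to signals and to handling of tissue. Of 14 such genes 5 were at least 2-fold higher and 0 lower, with a median log2 ratio of 0.88. Dusp1, a phosphatase of MAP kinases, stood at 3351 against 735 CPM, log2 ratio 2.19 (2.01 to 2.37). On the same log2 scale the transcription factor gene Fosb was at 2.00, Zfp36, which destabilizes cytokine mRNAs, at 1.67, and Jund at 1.31. Among 14 genes of hypoxia and glycolysis 1 was higher and 5 lower, with a median log2 ratio of -0.63: Vegfa, the growth factor of vessels, stood at 347 against 81.1 CPM, log2 ratio 2.10 (1.56 to 2.67), while the glycolytic genes Pgk1 and Eno1 were at -1.33 and -1.29. By cells Vegfa hardly differed, in 18 of 59 and 15 of 50 basophils, and with MC903 1 cell held 31.2% of its UMIs. Serpinb2, a protease inhibitor, stood at 462 against 19.7 CPM, log2 ratio 4.55 (3.56 to 5.78), in 19 and 3 cells, and Slpi, an inhibitor of neutrophil elastase, at 2222 against 278 CPM, log2 ratio 3.00 (2.72 to 3.29), in 42 and 34 cells.

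Some large ratios in this small gate came from 1 cell. With MC903, 1 basophil held 65.1% of Mt1 UMIs and 78.5% of Mt2, genes of metal-binding metallothioneins, and at oxazolone day 16, 1 cell held 87.8% of S100a8 and 90.9% of S100a9. The fibroblast and cartilage gene Mgp held 360 UMIs in MC903 basophils and 0 at oxazolone day 16. The 8 macrophage markers summed to 800.5 CPM with MC903 and 90.9 CPM at oxazolone day 16, most of it Ly6c2, and C1qb, Ms4a7 and Fcgr1 were at 0 with MC903. The 7 neutrophil markers summed to 437 and 477 CPM. The part of other cells' RNA in the basophil values was not tested.

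Fibroblasts at oxazolone day 16 held far more chemokine and cytokine transcript than those with MC903. Of 15904 genes, 2391 (15%) were at least 2-fold higher and 1911 (12%) lower with MC903 (1888 and 2382 with TMM), with a median log2 ratio of 0.16. All 7 measured neutrophil attractants were lower, with a median log2 ratio of -4.11. Cxcl5 (GRCm38 chr5:90759360-90761624, plus strand), a chemokine that draws neutrophils, stood at 39.0 CPM with MC903 and 1319.8 CPM at oxazolone day 16, log2 ratio -5.08 (-5.16 to -5.01), with 0.249 CPM in untreated skin and 1075 CPM at oxazolone day 10. It was held by 50 of 1714 and 220 of 610 fibroblasts (2.92% and 36.1%), and at an equal depth by 1.30% and 24.6%. In lymphocytes, which do not make it, 0.373% and 3.81% of cells held a UMI, and 0.377% and 1.47% at an equal depth. Cxcl5 was a fibroblast transcript in both libraries, with 99.5% and 97.0% of its UMIs in this class. Csf3, which encodes G-CSF, the growth factor of neutrophils, stood at 1.10 against 39.3 CPM, log2 ratio -5.15 (-5.62 to -4.72). Ppbp held 1 UMI against 83, log2 ratio -7.54 (-12.86 to -5.02), and Pf4 had log2 ratio -4.11 (-4.44 to -3.80). Both rest on few cells of the oxazolone day 16 library. There 9 of 610 fibroblasts held Ppbp, 1 of them with 66.3% of its UMIs, and 5 cells held 81.4% of the Pf4 UMIs. Macrophages held Pf4 higher than fibroblasts, and the fibroblast level of Pf4 was 0.319% and 4.73% of theirs.

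The 8 monocyte attractants were all lower too, with a median log2 ratio of -2.56. Ccl2, the main ligand of the monocyte receptor Ccr2, stood at 39.9 against 513 CPM, log2 ratio -3.68 (-3.76 to -3.61). Ccl7 stood at 66.6 against 472 CPM, log2 ratio -2.82 (-2.89 to -2.76), Ccl8 at -3.87 and Ccl12 at -6.33. At oxazolone day 16, 5 fibroblast-gated cells held 72.3% of the class's Ccl12 UMIs and 5 held 47.3% of its Ccl8 UMIs. Ccl12 held 394 UMIs in the 610 fibroblasts there and 15794 in the 1462 macrophages. The part of macrophage RNA in the fibroblast ratio of Ccl12 was not tested. Macrophages held Ccl2 higher than fibroblasts in both libraries. The fibroblast level of Ccl2 was 4.83% of the macrophage level with MC903 and 20.5% at oxazolone day 16. Without fibroblast-gated cells that held 2 or more markers of macrophages or neutrophils, which left 854 and 188 cells, 4 of the 8 were at least 2-fold lower, the log2 ratio of Ccl2 was -3.19 and that of Cxcl5 -4.83.

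Transcripts of macrophages give the scale of foreign RNA in this gate. Arg1, an arginine-degrading enzyme of macrophages, read 2.04 against 215 CPM in fibroblast-gated cells, or 0.0749% and 3.05% of its macrophage level, and Ccl24 read 1.47 against 229 CPM, or 0.0650% and 3.85%. The T cell granzyme Gzma read 0.0981 against 13.8 CPM. The 8 macrophage markers summed to 151 and 198 CPM and the 7 neutrophil markers to 354 and 181 CPM, with none at 0 in either library. The Arg1 and Ccl24 values of fibroblasts are given as background, not as differences of the class. Mmp12 and Mmp13, matrix-degrading enzymes that macrophages held highest, had log2 ratios of -5.15 and -4.44 in the fibroblast gate, at 2.62% and 1.38% of the macrophage level at oxazolone day 16.

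Il33 and 5 IL-6 family genes of fibroblasts were lower with MC903. Il33 stood at 36.6 against 264 CPM, log2 ratio -2.85 (-2.94 to -2.77), in 11.6% and 45.7% of cells, and in 3.16% and 20.8% at an equal depth. In lymphocytes 0.373% and 0.880% of cells held it. Its receptor Il1rl1 stood at 5.27 against 76.9 CPM, log2 ratio -3.87 (-4.08 to -3.66), the reverse of the direction in basophils, where the ratio was under 2-fold with TMM. It was held by 35 of 1714 and 70 of 610 fibroblasts, and 5 cells held 59.1% and 55.0% of its UMIs. Tslp differed less, at 3.75 against 2.42 CPM, log2 ratio 0.63 (0.14 to 1.15). Of 11 genes of the IL-6 family 3 were at least 2-fold higher and 5 lower, with a median log2 ratio of -0.39: Il6 stood at 24.6 against 250.2 CPM, log2 ratio -3.35 (-3.45 to -3.25), Il11 at -3.99 and Lif at -3.96. At oxazolone day 16, 1 cell held 42.1% of the Il11 UMIs. Without the cells that held leukocyte markers the log2 ratio of Il33 was -2.84 and that of Il6 -3.50, and 3 of the family were lower.

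Of 13 measured antimicrobial and acute-phase genes of fibroblasts 5 were at least 2-fold lower and 2 higher, with a median log2 ratio of -0.68. The 2 higher were Saa2, another serum amyloid A, at 7.23 against 1.10 CPM, with 87.1% of its MC903 UMIs in 1 cell, and the neutrophil granule gene Ngp at 6.77 against 2.47 CPM, and both reversed under 1 alternative each. Saa3, a serum amyloid A of inflamed tissue, stood at 126 against 2318 CPM, log2 ratio -4.21 (-4.25 to -4.16), with 0.221 CPM in untreated skin and 1228 CPM at oxazolone day 10. At an equal depth it was held by 2.41% and 27.3% of fibroblasts (6.07% and 42.6% unthinned). In lymphocytes the equal-depth shares were 0.377% and 2.35%, and in macrophages 9.58% and 19.7%. Lcn2, which starves bacteria of iron, stood at 36.4 against 165 CPM, log2 ratio -2.18 (-2.27 to -2.09), and Slpi at 68.6 against 189 CPM, log2 ratio -1.46 (-1.54 to -1.39). Saa3 and Lcn2 in MC903 fibroblasts also stood above untreated skin, where Lcn2 read 0.608 CPM. Interferon-stimulated genes were lower with MC903 in 10 of 14 and higher in 0, with a median log2 ratio of -1.74: Isg15, a ubiquitin-like modifier, stood at 11.8 against 75.2 CPM, log2 ratio -2.67 (-2.83 to -2.52), Ifit1 at -2.81, Irf7 at -2.19 and Ifi44 at -4.12.

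The receptors of IL-4 and IL-13 differed between their chains. Il4ra, the chain shared by both cytokines, stood at 31.2 against 106 CPM in fibroblasts, log2 ratio -1.76 (-1.87 to -1.66), and Il13ra1, the second chain of the type II receptor, at 94.6 against 113 CPM, log2 ratio -0.25 (-0.33 to -0.18). Ccl11, an eotaxin that IL-4 and IL-13 induce in fibroblasts, stood at 167 against 204 CPM, log2 ratio -0.29 (-0.35 to -0.24). Per UMI of fibroblasts Ccl11 was thus near equal in the 2 libraries, while it was 2.83-fold higher with MC903 over whole libraries, where fibroblasts were 5.78-fold more frequent.

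Matrix genes were mostly within 2-fold, and those that were not were lower with MC903. Of 21 collagen and matrix genes 5 were at least 2-fold lower and 0 higher, with a median log2 ratio of -0.70 (9 lower with TMM). Tnc, the matrix protein tenascin C of wounds, stood at 386 against 1961 CPM, log2 ratio -2.34 (-2.37 to -2.32), the fibrillar collagen gene Col3a1 at 2254 against 7860.3 CPM, log2 ratio -1.80 (-1.81 to -1.79), Col14a1 at -1.99 and Col15a1 at -1.81. Col3a1 is also a marker of this gate, so that the gate sets its level in part. Of 16 metalloproteases and inhibitors 5 were higher and 4 lower, or 2 lower without cells that held leukocyte markers. The inhibitor gene Timp1 stood at 162 against 1665 CPM, log2 ratio -3.36 (-3.40 to -3.32), and Timp4 the other way, at 18.7 against 1.92 CPM, log2 ratio 3.28 (2.79 to 3.82). Cell cycle genes were lower in 14 of 15, with a median log2 ratio of -2.73: the proliferation antigen gene Mki67 stood at 1.77 against 38.3 CPM, log2 ratio -4.44 (-4.81 to -4.09), the topoisomerase gene Top2a at -4.33 and the cyclin gene Ccna2 at -3.23. Cycling fibroblasts were few, with Mki67 in 21 of 1714 and 50 of 610 cells, and without cells that held leukocyte markers 7 of the cycle genes were lower and 1 higher.

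Some genes were held by a subset of MC903 fibroblasts. Angptl7, a secreted angiopoietin-like protein, stood at 355 CPM with MC903 and 5.77 CPM at oxazolone day 16, log2 ratio 5.94 (5.67 to 6.23), with 79.7 CPM in untreated skin and 12.3 CPM at oxazolone day 10, and was held by 357 of 1714 and 15 of 610 cells. At an equal depth 13.1% and 0.359% of fibroblasts held it, against 0.755% and 0.294% of lymphocytes. Without the cells that held it, the log2 ratio was -5.03 for Cxcl5, -2.75 for Il33 and -4.22 for Saa3, close to the values for all fibroblasts. Bhmt, an enzyme of methionine metabolism, held 906 UMIs against 1, log2 ratio 8.66 (6.18 to 13.96), in 80 MC903 fibroblasts. Crp, the C-reactive protein gene, held 372 against 3, log2 ratio 5.79 (4.23 to 8.07), in 92 cells, and Sv2b, a vesicle protein, 350 against 2, log2 ratio 6.29 (4.42 to 9.34), in 104 cells. Sv2b was also present in untreated fibroblasts, at 39.8 CPM.

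**Figure D3:**
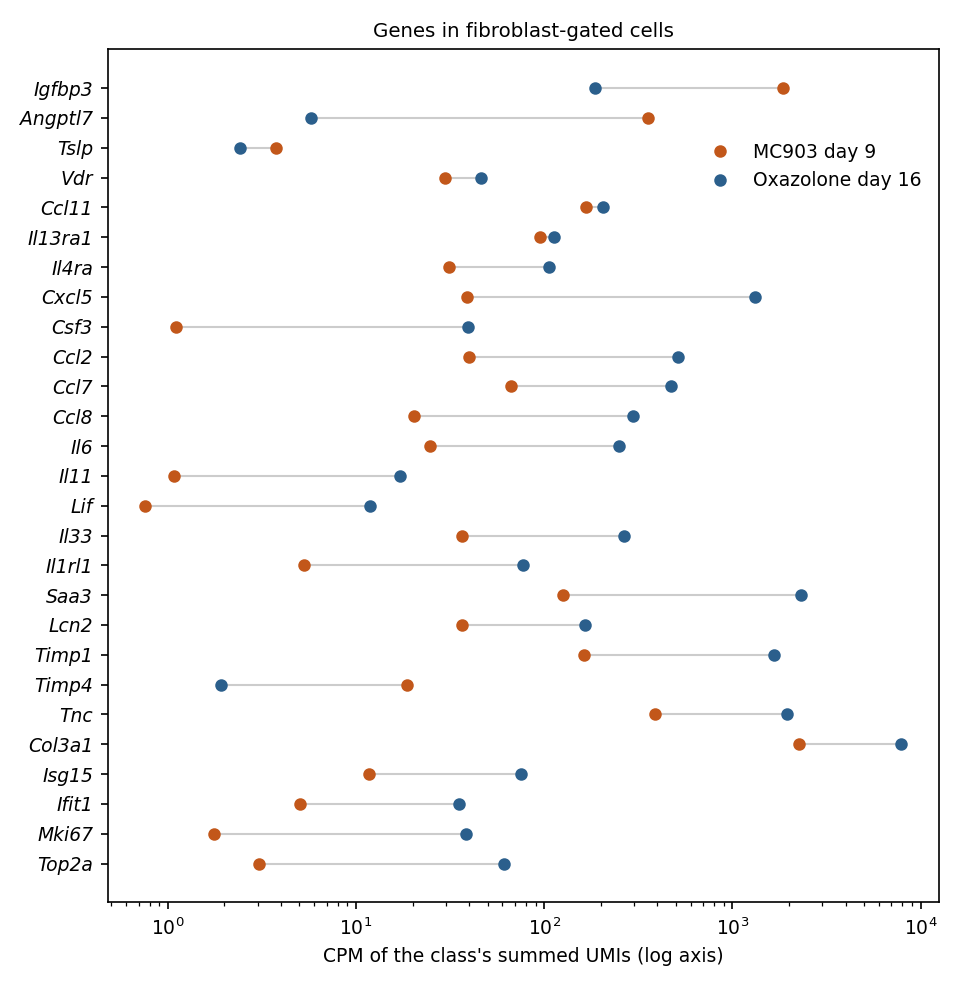
Levels of selected genes in fibroblast-gated cells, in CPM of the class's summed UMIs on a log axis, in the MC903 day 9 library (orange) and the oxazolone day 16 library (blue), 1 point per library. Igfbp3, Angptl7, Tslp and Timp4 stand to the right with MC903, and every other gene drawn to the right with oxazolone, and Ccl11 and Il13ra1 lie closest together.

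Macrophages of the 2 libraries differed in degree for IL-4 targets. Of 12200 genes, 1618 (13.3%) were at least 2-fold higher and 429 (3.52%) lower with MC903 (1080 and 668 with TMM), with a median log2 ratio of 0.27. Of 11 receptors and targets of the IL-4 pathway 4 were lower (2 with cells weighted equally) and 1 higher, with a median log2 ratio of -0.62. Arg1 stood at 2719 CPM with MC903 and 7069 CPM at oxazolone day 16, log2 ratio -1.38 (-1.41 to -1.35), with 3.89 CPM in untreated skin and 319 CPM at oxazolone day 10. It was held by 47.9% and 88.9% of macrophages, and by 38.3% and 75.3% at an equal depth. Macrophages held medians of 24085 and 21573.5 UMIs per cell. In lymphocytes, which should lack Arg1, the share at that depth was 0% and 5.59%. Ccl24 stood at 2265 against 5953 CPM, log2 ratio -1.39 (-1.42 to -1.36). The summed level of Chil3, a chitinase-like protein, hardly differed, at 3437 against 3773 CPM, log2 ratio -0.13 (-0.16 to -0.11). By cells Chil3 was lower with MC903, held by 60.9% and 87.0% of macrophages, and 5 cells held 23.5% and 4.00% of its UMIs. Il4ra stood at 245 against 344 CPM, log2 ratio -0.49 (-0.58 to -0.40). In untreated macrophages Ccl24 read 191 CPM and Chil3 143 CPM. Retnla rests on 6 and Ccl17 on 11 of the 169 MC903 macrophages, and their log2 ratios were -1.31 and 3.37.

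Chemokines for monocytes were lower and antigen-presenting genes higher in the summed UMIs of MC903 macrophages. Of 8 monocyte attractants 4 were lower and 0 higher, with a median log2 ratio of -0.83: Ccl2 stood at 828 against 2508 CPM, log2 ratio -1.60 (-1.65 to -1.55), Ccl8 at 1118 against 2971 CPM, log2 ratio -1.41 (-1.45 to -1.37), Ccl7 at -1.82 and Ccl12 at -1.78. Of 8 genes of MHC class II presentation 5 were higher and 0 lower, with a median log2 ratio of 1.23. H2-Eb1, a class II chain, stood at 1117 against 396 CPM, log2 ratio 1.49 (1.45 to 1.54), H2-Aa at 1.32, H2-Ab1 at 1.30 and their transactivator Ciita at 1.60. By cells the 3 chains differed little: 45.6% and 43.5% of macrophages held H2-Eb1, 51.5% and 51.4% H2-Aa, and 58.0% and 63.4% H2-Ab1. Ciita was held by 24.3% and 9.37%. In untreated skin H2-Eb1 stood at 3279 CPM, above both. The 7 dendritic cell markers in this gate summed to 63.2 CPM with MC903 and 13.2 CPM at oxazolone day 16, none at 0, and the part of dendritic cells in the class II values was not tested.

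Of 9 lipid mediator genes 4 were higher and 0 lower in macrophages. Beside the dendritic cell markers above, the 7 mast cell markers in this gate summed to 25.4 CPM with MC903 and 5.55 CPM at oxazolone day 16, mainly Kit with MC903, with Tpsab1 and Mrgprb2 at 0 with MC903 and Mrgprb2 at 0 at oxazolone day 16. The part of dendritic and mast cells in the lipid mediator values was not tested. Ltc4s, the synthase of leukotriene C4, stood at 34.8 against 1.65 CPM, log2 ratio 4.39 (3.93 to 4.87), in 22 of 169 and 21 of 1462 cells, Ptgs1, a cyclooxygenase, at 3.07, Alox5, which starts leukotriene synthesis, at 2.25, and the prostaglandin D synthase gene Hpgds at 1.91. In untreated macrophages Ltc4s stood at 44.4 CPM and Hpgds at 117 CPM, and the MC903 level of Ltc4s lay nearer to untreated skin than to oxazolone day 16. Gdf15, a stress-induced cytokine, stood at 311 against 10.3 CPM, log2 ratio 4.91 (4.74 to 5.09), in 48 and 99 cells. Acpp, an acid phosphatase, stood at 136 against 2.00 CPM, log2 ratio 6.09 (5.72 to 6.49), in 40.2% and 2.46% of cells, or 12.6% and 0.415% at an equal depth. Lymphocytes held Acpp as well, in 32.8% and 23.5% of cells. Ch25h, which makes an oxysterol, was lower, with 4 UMIs against 882, log2 ratio -4.88 (-6.76 to -3.52), and Gdf3, a growth and differentiation factor, held 3 against 305, log2 ratio -3.76 (-6.05 to -2.20). Il1f9 and S100a9, both neutrophil genes, had log2 ratios of -4.56 and -3.59, at 1.29% and 1.32% of the neutrophil level at oxazolone day 16. The summed levels of the cytokines Il1b and Osm were somewhat higher with MC903, with log2 ratios of 0.45 and 0.67. By cells they were not higher: 65.7% and 83.0% of macrophages held Il1b, and 67.5% and 76.9% held Osm.

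**Figure D4:**
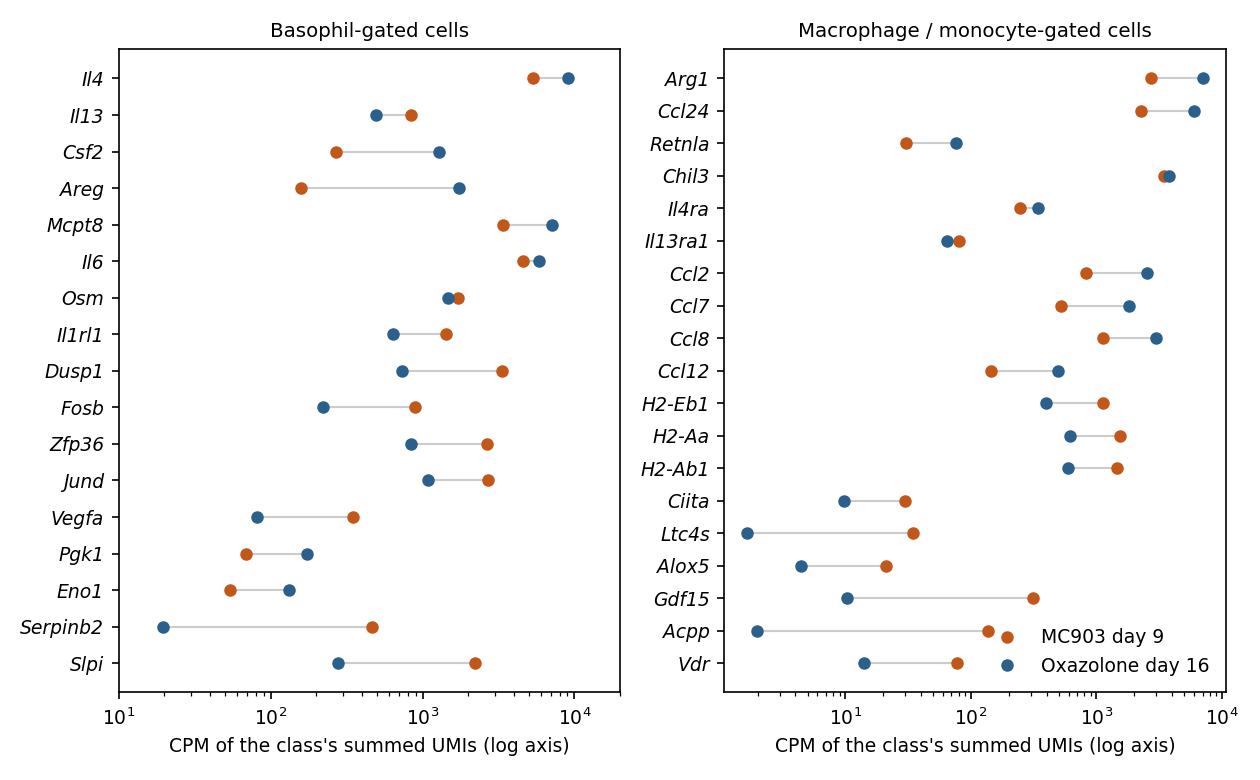
Levels of selected genes in basophil-gated (left) and macrophage- or monocyte-gated cells (right), in CPM of the class's summed UMIs on a log axis, in the MC903 day 9 library (orange) and the oxazolone day 16 library (blue), 1 point per library. Areg and Csf2 lie far to the right with oxazolone in basophils, the immediate early genes Dusp1, Fosb, Zfp36 and Jund to the right with MC903, and in macrophages the class II and lipid mediator genes lie to the right with MC903 and the monocyte attractants to the right with oxazolone.

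Neutrophils were fewer with MC903, and their level of the cytokine Il1b differed little. Of 12213 genes, 3919 (32.1%) were at least 2-fold higher and 565 (4.63%) lower with MC903 (2537 and 1366 with TMM), with a median log2 ratio of 0.50. Il1b stood at 7432 CPM with MC903 and 6045 CPM at oxazolone day 16, log2 ratio 0.30 (0.28 to 0.32), and S100a8 at -0.46. Osm, oncostatin M, stood at 367 against 564 CPM, log2 ratio -0.62 (-0.71 to -0.53) or -1.11 with TMM, and Il4ra at 79.9 against 81.2 CPM, log2 ratio -0.02 (-0.23 to 0.17). By cells 59.6% and 78.4% of neutrophils held Osm. Il23a, a chain of the cytokine IL-23 that sustains IL-17-producing cells, was higher with MC903, at 163 against 42.3 CPM, log2 ratio 1.95 (1.79 to 2.10), in 61 of 280 and 360 of 3707 cells. At an equal depth 15.4% (11.2 to 20.4%) and 4.85% (4.17 to 5.60%) of neutrophils held it, against 0.186% and 0.180% of fibroblasts.

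Genes of fibroblasts and macrophages also differed in the neutrophil gate. Of the collagen and matrix list, 21 genes were measured in neutrophil-gated cells, 11 of them higher and 3 lower, with a median log2 ratio of 1.26, among them Lox, which cross-links collagen, with a log2 ratio of 4.60 and Col4a1 of basement membranes at 2.80. Mgp stood at 943 against 9.40 CPM, with 94.2% of its MC903 UMIs in 5 cells, and Igfbp3 at 74.8 against 0.943 CPM. The 7 fibroblast markers summed to 579 CPM with MC903 and 144 CPM at oxazolone day 16. Without cells that held a UMI of Col1a1, Col1a2 or Col3a1, which left 171 and 1797, 7 matrix genes were higher and 1 lower. MHC class II genes were lower in 6 of 8, with a median log2 ratio of -1.18, at low levels such as 5.78 against 39.5 CPM for H2-Eb1, and in 3 of 8 without those cells. The macrophage gene Mmp12 held 1 UMI with MC903 against 959, log2 ratio -6.33 (-11.64 to -3.85), and C1qc 1 against 219, log2 ratio -4.20 (-9.51 to -1.71). The 8 macrophage markers summed to 279 and 429.9 CPM. The part of fibroblast and macrophage RNA in these values was not tested.

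Lymphocytes differed in the IL-17 pathway, which defends skin against microbes and recruits neutrophils. Of 10466 genes, 1586 (15.2%) were at least 2-fold higher and 368 (3.52%) lower with MC903 (755 and 666 with TMM), with a median log2 ratio of 0.39. Of 6 measured genes of the IL-17 and IL-22 list 4 were lower and 0 higher, with a median log2 ratio of -1.72. Il17a (GRCm38 chr1:20730905-20734496, plus strand) stood at 2.58 CPM with MC903 and 233 CPM at oxazolone day 16, log2 ratio -6.49 (-7.63 to -5.56), with 7.93 CPM in untreated skin and 14.6 CPM at oxazolone day 10. It was held by 4 of 268 (1.49%, 0.408 to 3.78%) and 92 of 341 (27.0%, 22.3 to 32.0%) cells, and at an equal depth by 0.377% and 18.2%. In neutrophils, which do not make it, 0% and 0.216% of cells held an Il17a UMI, at medians of 7368 and 7706 UMIs. Lymphocytes held 84.3% of all Il17a UMIs of the oxazolone day 16 library, and their level stood above that of each of the other 3 libraries.

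Related genes followed at smaller ratios. Il23r, the IL-23 receptor, stood at 46.5 against 216 CPM, log2 ratio -2.21 (-2.46 to -1.97), and Il17f at 47.9 against 136 CPM, log2 ratio -1.51 (-1.77 to -1.26) or -0.69 with cells weighted equally. At oxazolone day 16, cells with 2 or more UMIs of Trdc, the constant gene of the delta chain of the gamma delta T cell receptor, held 87.3% of the lymphocytes' Il17a UMIs. Such cells made up 65 of 268 (24.3%, 19.2 to 29.8%) of lymphocytes with MC903, 135 of 341 (39.6%, 34.4 to 45.0%) at oxazolone day 16 and 670 of 871 (76.9%, 74.0 to 79.7%) in untreated skin. Cells with 2 or more UMIs of Trac, the alpha chain gene, were 124 of 268 (46.3%, 40.2 to 52.4%) and 153 of 341 (44.9%, 39.5 to 50.3%), intervals that overlap.

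Another group of genes was present in lymphocytes with MC903 and nearly missing at oxazolone day 16. Kcnma1, a calcium-gated potassium channel, stood at 522 CPM with MC903 and 0.232 CPM at oxazolone day 16, log2 ratio 11.13 (8.65 to 16.44), and at 1183 CPM in untreated skin. Cells with a UMI of it were 77 of 268 (28.7%, 23.4 to 34.6%) with MC903, 1 of 341 (0.293%, 0.00742 to 1.62%) at oxazolone day 16, 637 of 871 (73.1%, 70.1 to 76.1%) in untreated skin and 31 of 414 (7.49%, 5.14 to 10.5%) at oxazolone day 10. At an equal depth 25.7% and 0% of the MC903 and oxazolone day 16 lymphocytes held it. In macrophages 4.14% and 0.684% of cells held it unthinned. Of the 77 Kcnma1 cells with MC903, 54 also held Trdc. Olfm3, Fermt2, Map2 and Cntn1, genes better known from nerve and adhesion, were higher with MC903 as well. Olfm3 stood at 150.1 against 0.232 CPM, log2 ratio 9.33 (6.85 to 14.64), Fermt2 at 140.0 against 1.86 CPM, Map2 at 118 against 2.56 CPM and Cntn1 at 172 against 4.65 CPM. Untreated lymphocytes held these 4 genes at 1041, 470.5, 650.1 and 974 CPM.

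Of 4 measured type 2 cytokines of lymphocytes, Il4 and Il13 were at least 2-fold higher with MC903, Il10 was lower, at 18.4 against 61.1 CPM, and Csf2 read 4.59 against 5.58 CPM. Il10 was held by 18 of 268 and 32 of 341 cells, and 5 cells held 73.4% and 57.8% of its UMIs. Il4 stood at 58.2 against 15.3 CPM, log2 ratio 1.93 (1.52 to 2.35), in 45 of 268 and 14 of 341 cells, at an equal depth 4.91% (2.64 to 8.24%) and 1.76% (0.650 to 3.80%), intervals that overlap. Il13 stood at 16.9 against 3.25 CPM, but 1 cell held 66.1% of the MC903 UMIs. Il1rl1, which is also a marker of this gate, so that the gate sets its level in part, stood at 99.6 against 35.1 CPM, log2 ratio 1.50 (1.22 to 1.79). Of 15 lymphocyte effector genes 2 were higher and 4 lower, with a median log2 ratio of -0.11. The granzyme Gzma, a killer protease, stood at 245 against 1587 CPM, log2 ratio -2.70 (-2.80 to -2.59), in 25 and 107 cells, and Gzmb at -1.87, while Gzmc read 4.67 with 90.7% of the MC903 UMIs in 1 cell. In this gate too the oxazolone library carried more myeloid RNA: Arg1 read 1.15 against 126 CPM and S100a8 49.9 against 713 CPM. The macrophage markers summed to 68.9 and 160.1 CPM and the neutrophil markers to 73.2 and 177 CPM, and its part in other ratios was not tested.

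**Figure D5:**
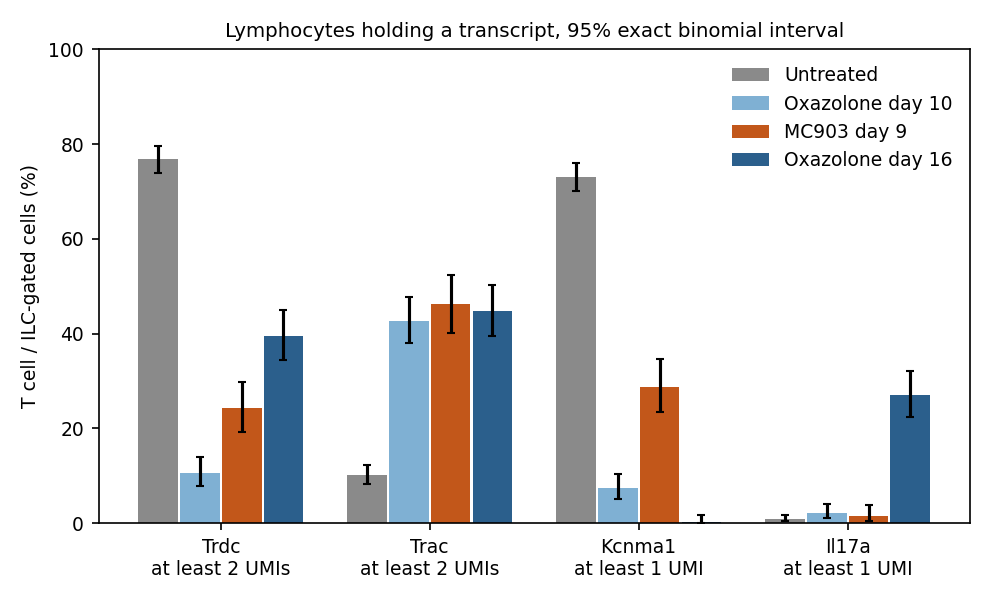
Share of T cell- or innate lymphoid-gated cells that held Trdc or Trac (at least 2 UMIs) or Kcnma1 or Il17a (at least 1 UMI) in the untreated, oxazolone day 10, MC903 day 9 and oxazolone day 16 libraries, in percent, with exact 95% binomial intervals. Il17a stands high at oxazolone day 16 alone, and Kcnma1 in untreated skin and, lower, with MC903.

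Keratinocytes were few, 122 and 112 cells, and differed in 13 of 15 cell cycle genes. Of 11332 genes, 1108 (9.78%) were at least 2-fold higher and 1933 (17.1%) lower with MC903, with a median log2 ratio of -0.09. No list of lipid or follicle genes was counted here, and the genes named next are those of the highest or lowest ratios. Acot5, a thioesterase of fatty acids, stood at 128 CPM with MC903 and 0.259 CPM at oxazolone day 16, log2 ratio 8.95 (6.46 to 14.25), in 92 cells and 1 cell, and 12.3 CPM in untreated skin. At an equal depth 15.8% and 0% of keratinocytes held Acot5, whose unthinned medians were 42567 and 28343 UMIs. Elovl3 and Elovl4, which lengthen fatty acids, stood at 172 against 1.30 CPM and 206 against 0.777 CPM, the latter at log2 ratio 8.05 (6.50 to 10.33). Fa2h, which adds a hydroxyl group to them, stood at 599 against 2.85 CPM, and Acer1, a ceramidase, at 45.4 against 0.259 CPM, log2 ratio 7.45 (4.96 to 12.76). Some of them came mostly from few cells, with 82.3% of Elovl4 and 64.7% of Fa2h UMIs in 5 cells.

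Lower with MC903 were single genes and most cell cycle genes. Lgr5, a marker of hair follicle stem cells, stood at 3.08 against 246 CPM, log2 ratio -6.32 (-7.11 to -5.64), in 5 of 122 and 71 of 112 cells (1.67% and 25.7% at an equal depth), and Smoc1, a matrix-bound calcium-binding protein, held 3 against 257 UMIs, log2 ratio -6.94 (-9.23 to -5.38). Of 7 cornified envelope and stress keratin genes 2 were higher and 3 lower. The stress keratins Krt6a, Krt16 and Krt17, also keratins of the follicle, were lower, with log2 ratios of -4.38, -4.13 and -3.39, and the envelope precursor Sprr1a was higher, at 1.72 on that scale, with 6 and 2 cells holding it. Krt6a was held by 5 and 28 cells, Krt16 by 2 and 13 and Krt17 by 48 and 86. At oxazolone day 16, 5 cells held 84.2% of Krt6a, 77.0% of Krt16 and 31.0% of Krt17 UMIs. Krt35, a hair keratin, came at oxazolone day 16 mostly from 1 cell (76.7% of its UMIs). Cell cycle genes were lower in 13 of 15 and higher in 0, with a median log2 ratio of -1.66: Ube2c stood at 3.98 against 54.9 CPM, log2 ratio -3.79 (-4.49 to -3.15), Ccna2 at -2.93, Rrm2 at -2.29 and Cdk1 at -2.17. The neutrophil and macrophage markers in this gate summed to 20.3 and 31.1 CPM with MC903 and 158 and 134 CPM at oxazolone day 16, beside S100a8 at 40.3 against 993 CPM.

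In cartilage cells of the ear, 90 and 58 cells, 1080 of 8748 genes (12.3%) were at least 2-fold higher and 633 (7.24%) lower (741 and 909 with TMM), with a median log2 ratio of 0.17. Higher with MC903 were Pdk4, a brake on glucose oxidation, at 217 against 12.1 CPM, log2 ratio 4.16 (3.54 to 4.85), and Txnip, which limits glucose uptake, at 1349.8 against 94.6 CPM, log2 ratio 3.84 (3.61 to 4.07). Pdk4 was held by 72 of 90 and 8 of 58 cells. Lower were the elastic fibre genes Eln, elastin, at 842 against 7635 CPM, log2 ratio -3.18 (-3.26 to -3.10), and Emilin1 at -3.36, with Emilin1 in 15 and 51 cells. Coch, a matrix protein, had a log2 ratio of 8.08 and 99.6% of its MC903 UMIs in 1 cell. The libraries pooled ear and neck skin in a ratio not given in the sources used here, and its part in the number of cartilage cells was not tested.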

How the data were processed

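Single-cell RNA-seq of 4 libraries of mouse skin was used, 2 of them for the comparison. The deposited matrices hold UMI counts per gene and barcode, not normalized, made by the authors with Cell Ranger 8.0 on mm10 per the submitters' processing notes, and the file headers of both compared libraries name Cell Ranger 8.0.0. Those of the untreated and oxazolone day 10 libraries name 7.2.0, and the part of this version in the values printed from them was not tested. Whether intronic reads were counted is not given in the sources used here. Barcodes were kept where 300 or more genes were detected and mitochondrial UMIs made up no more than 15%, which left out 342 (MC903) and 290 (oxazolone day 16). A cell took the class with the highest marker score if at least 3 of its markers were detected and the score was at least 1.25 times the next. Ungated cells with at least 2 Mcpt8 UMIs were added to the basophils. These thresholds were set after gate sizes had been seen. Doublets were kept, and leaving out the highest Scrublet scores was an alternative (129 and 519 cells). Counts were summed per class and library and divided by the class total (CPM). Genes needed 30 UMIs over both libraries. Intervals are exact: conditional binomial for ratios, Poisson for levels and Clopper-Pearson for shares, at 95%, and a fold against 0 uses a floor of 3 UMIs. For equal depth each cell was thinned to 2000 UMIs, which left out 316 and 682 shallower cells. edgeR 4.0.16 (R 4.3.3) gave TMM sizes, and Python 3.11.15, numpy 2.4.6, scipy 1.17.1, pandas 2.3.3 and scanpy 1.11.5 did the rest. The ratio and interval steps were tested on simulated data. Named genes are up to 4 members per list with the largest ratios, up to 8 highest and 8 lowest ratios per class among genes with at least 200 UMIs, and a set of cytokine, chemokine and vitamin D genes, and others named as markers or for background RNA were chosen after their values were seen. Of the list genes, 7 were not matched by symbol. The members and lists were chosen with earlier results of these data known. The promoter is from RefSeq (GRCm38.p6), and gene positions are in GRCm38.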

Additional observations from a re-analysis of the deposited data

How the results depend on the processing

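No paired analysis was possible because each treatment had 1 library. Of 621 recomputed counts, list counts and shares, 515 stayed within 1.5 times or the counting interval of the reported value and 106 moved, and of 1518 recomputed ratios of named genes 1494 stayed on their side of 2-fold, 17 no longer passed it, 4 newly passed it and 3 reversed, all in fibroblasts: Ngp at -0.25 with the mean of single-cell CPM, Cd14 at 0.39 with 5% free RNA taken off and Saa2 at -0.34 with 1 more marker per gate. The cause of these moves was not tested unless the setting itself removes genes or cells. Counts below are higher, then lower, with MC903. With TMM sizes the counts were 3158 and 3943 over whole libraries, 432 and 300 in basophils, 2537 and 1366 in neutrophils, 755 and 666 in lymphocytes and 668 lower in macrophages; basophil effectors 0 and 5, immediate early genes 1 lower, fibroblast matrix genes 9 lower and lymphocyte effectors 1 higher. Requiring 100 UMIs, which tests fewer genes, gave 207 and 52 in basophils, 869 and 207 in macrophages, 2087 and 283 in neutrophils, 708 and 197 in lymphocytes, 690 and 1143 in keratinocytes and 515 and 266 in cartilage cells, 3 hypoxia genes lower, 0 IL-4 targets higher in macrophages 1 cornified gene higher and 1 type 2 cytokine of lymphocytes higher. With no filter the counts were 4391 lower over whole libraries, 3136 and 3070 in basophils, 5554 lower in fibroblasts, 8772 higher in macrophages, 12842 higher in neutrophils, 5010 and 2029 in lymphocytes, 2948 and 5255 in keratinocytes and 3597 and 2610 in cartilage cells. Lists then gave 3 type 2 cytokines higher over whole libraries and 4 in lymphocytes, 2 hypoxia genes higher, 1 neutrophil attractant higher in fibroblasts, 3 IL-4 targets and 7 lipid mediator genes higher in macrophages, 7 IL-17 genes and 6 cornified genes lower. Among cells not gated as neutrophils the log2 share ratios were 0.48 for basophils, -0.86 for blood and 0.36 for lymphatic endothelium, 0.87 for cartilage, 1.73 for fibroblasts, 0.36 for keratinocytes, -2.87 for macrophages, 2.60 for mural cells, 2.84 for Schwann cells and -0.11 for lymphocytes. Gating thinned cells gave 1.15 for cartilage. With the mean of single-cell CPM 0 basophil effectors and 1 fibroblast matrix gene were higher, 2 IL-4 targets in macrophages and 3 class II genes in neutrophils lower, 1 lymphocyte effector higher, and in fibroblasts 2 vitamin D genes lower and 1 antimicrobial gene higher. Taking off 5% free RNA left monocyte attractants of fibroblasts at 1 and 5, vitamin D genes at 0 lower, antimicrobial genes at 4 higher, neutrophil genes at 340 lower and neutrophil matrix genes at 0 lower. With 1 more marker per gate, 1 antimicrobial gene of fibroblasts was higher, 3 class II genes of neutrophils were lower, and the share of UMIs held was 86.6% for Ccl24 (oxazolone day 16) and 82.2% and 85.9% for Arg1 in macrophages, 78.5% for Il17a in lymphocytes (oxazolone day 16) and 51.8% and 74.6% for Il1b in neutrophils. Without likely doublets, 9 fibroblast matrix genes were lower and 1 cornified gene higher, and the shares were 88.0% for Il4 in basophils (MC903), 98.0% for Cxcl5 and 49.7% for Il6 in fibroblasts (oxazolone day 16), 93.3% and 93.9% for Ccl24, 85.5% and 93.0% for Arg1, 93.3% for Il17a (oxazolone day 16) and 57.4% and 81.3% for Il1b. Alternatives added after seeing the data removed cells. Without fibroblast-gated cells with 2 or more leukocyte markers, 4 monocyte attractants, 3 IL-6 family genes and 2 metalloproteases were lower, 1 matrix gene was higher, and cell cycle genes stood at 1 and 7. Without neutrophil-gated cells with collagen UMIs 2285 genes were higher, 3 class II genes lower and matrix genes 7 and 1. Without the added Mcpt8 cells 412 basophil genes and 0 effectors were higher. The basophil, keratinocyte and cartilage comparisons rest on 50 to 122 cells a library, and pooled mice and the missing solvent control leave variation between mice and solvent effects unmeasured.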

Other observations

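Cfd, Adipoq and Apoc3, chosen after their values were seen, were higher in the MC903 library than in each of the other 3. Cfd, adipsin, held 13795 UMIs with MC903 against 8 at oxazolone day 16, 8 in untreated skin and 2 at oxazolone day 10. Cells that met no gate held 79.6% of the MC903 UMIs, and 20 cells held 98.9%. Adipoq, adiponectin, held 490 UMIs with MC903 against 5, 1 and 4 in the same order, and Apoc3, an apolipoprotein, 428 against 0 in each of the other 3. No fat cell gate was among the 18, so these cells were not counted as a class. Cfd in gated classes came from single cells as well, with 96.4% of the fibroblast UMIs in 1 cell and 98.5% of the macrophage UMIs in 1 cell.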
